A study of Homo sapiens with 4 samples.

Results

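Centromere and kinetochore proteins were followed as a set of 37 genes across prostate cancer cells in which the receptor gene TNFRSF13B, whose product is also called CD267, had been knocked down. The genes were taken from a written list, and 35 of the 37 were among the 17687 genes measured. CENPP and PMF1 were not analysed here, because the platform annotation used here names no probe set for them. Each of the 35 genes was measured by 1 probe set. The list holds 12 measured genes of the constitutive centromere network, 4 of CENP-A and its loading, 9 of the NDC80, MIS12 and KNL1 complexes, and 10 of the SKA complex, the shugoshins and the outer fibrous corona, where CENPE and CENPF were also placed.

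RNA of 4 stable cell populations was hybridised to 4 Affymetrix arrays, 1 per population: PC3 shCD267, PC3 Ctrl, 22RV1 shCD267 and 22RV1 Ctrl. PC3 and 22RV1 are established human prostate cancer lines, grown in F-12 and RPMI medium respectively, so line and medium cannot be told apart. Every population carried a pLKO.1 lentiviral vector and had been through puromycin selection. The shCD267 populations expressed a hairpin built on 1 target sequence, and the Ctrl populations carried the empty vector, with no hairpin of another target. The groups had no replicates, so no test of any difference could be made, and with 4 arrays the error of a value cannot be estimated.

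The centromere is the part of a chromosome marked by nucleosomes that hold the histone variant CENP-A. The constitutive centromere network sits on this chromatin through the cell cycle, and in mitosis it carries the outer kinetochore, whose NDC80 complexes hold the ends of spindle microtubules. Many of these proteins are made mainly by dividing cells, with transcript levels that climb towards mitosis in cycling cells. On bulk RNA, fewer cells close to mitosis and less transcript per cell cannot be told apart.

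All values below are log2 expression values, and a ratio is shCD267 minus Ctrl within a line, with 1 being 2-fold. The criterion of the study's methods, a change of at least 2-fold, was used to count genes. The 22RV1 Ctrl array stood apart, with a median over all probe sets of 5.33 against 6.93 to 7.01 on the other 3 arrays. As a result the median ratio of all genes in 22RV1 was 1.22 in the deposited values and -0.059 once the 4 arrays had been quantile normalized, while in PC3 it was -0.0019 and 0.0078. The 22RV1 ratios of the 35 genes are therefore given on both scales. TNFRSF13B read 4.85 in PC3 shCD267 and 5.25 in PC3 Ctrl, and 5.63 in 22RV1 shCD267 and 6.08 in 22RV1 Ctrl, so it was lower on the shCD267 array of each line, by less than 2-fold as deposited and by a ratio of -2.20 in 22RV1 once quantile normalized. Its first value lay below the dim level of that array, 4.98, a level that 95% of the olfactory receptor genes stayed below there. The line labels fitted 5 of 5 PC3 markers, which as deposited ranged from 10.40 to 15.47 on the PC3 arrays and from 4.13 to 10.07 on the 22RV1 arrays. The closest was CD44, which after quantile normalization read 11.33 in 22RV1 Ctrl and 11.76 in PC3 Ctrl. The ranges overlapped on that scale, with AXL at 9.95 in PC3 shCD267. Of 6 measured luminal markers, FOLH1 (3.96 and 3.42 in PC3, 15.53 and 14.28 in 22RV1) and STEAP2 separated 22RV1 from PC3, whereas HOXB13 was higher in PC3. KLK2, KLK3 and TMPRSS2 did not separate the lines as deposited. TMPRSS2 read 7.17 and 5.87 in PC3 shCD267 and Ctrl, and 6.47 and 6.15 in 22RV1 shCD267 and Ctrl. After quantile normalization KLK2 and KLK3 were higher on both 22RV1 arrays than on the PC3 arrays, and TMPRSS2 still did not separate the lines. The 4 measured fibroblast markers had no common direction in 22RV1, with ratios after quantile normalization of 2.498 for COL1A2, 0.30 for COL1A1, -0.98 for DCN and -1.28 for LUM. COL1A2 read 8.94 and 7.998 in PC3 shCD267 and Ctrl, and 8.70 and 4.68 in 22RV1 shCD267 and Ctrl. The 4 measured leukocyte markers lay between 3.21 and 7.03 on the 4 arrays, and of these LYZ was 1.47 higher on the log2 scale in PC3 shCD267 than in PC3 Ctrl, at 5.34 and 3.87. The part of these markers in the results was not tested.

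In PC3, 27 of the 35 genes were at least 2-fold lower in shCD267 than in Ctrl, beside 4.69% of all genes. None was at least 2-fold higher, beside 5.76% of all genes. The median ratio of the 35 genes was -1.44, with a range from -2.47 for NDC80 to 0.38 for CENPC, and 33 ratios lay below 0. In 22RV1 the set stood on the other side of Ctrl. As deposited, 34 genes were at least 2-fold higher in shCD267, a background share of 58.3% of all genes, and the median was 2.80 with a range from 0.84 to 5.62. After quantile normalization 20 genes were at least 2-fold higher, beside 13.3% of all genes, with a median of 1.10 and a range from -0.32 to 4.005. On that scale 15.8% of the 349 olfactory receptor genes, which are mostly dim, were past 2-fold in either direction in 22RV1. In PC3 that share was 1.15%, so ratios close to 1 are less certain in 22RV1. No gene of the set was at least 2-fold lower in 22RV1 on either scale, beside 2.01% of all genes as deposited and 15.5% after quantile normalization.

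**Figure D1:**
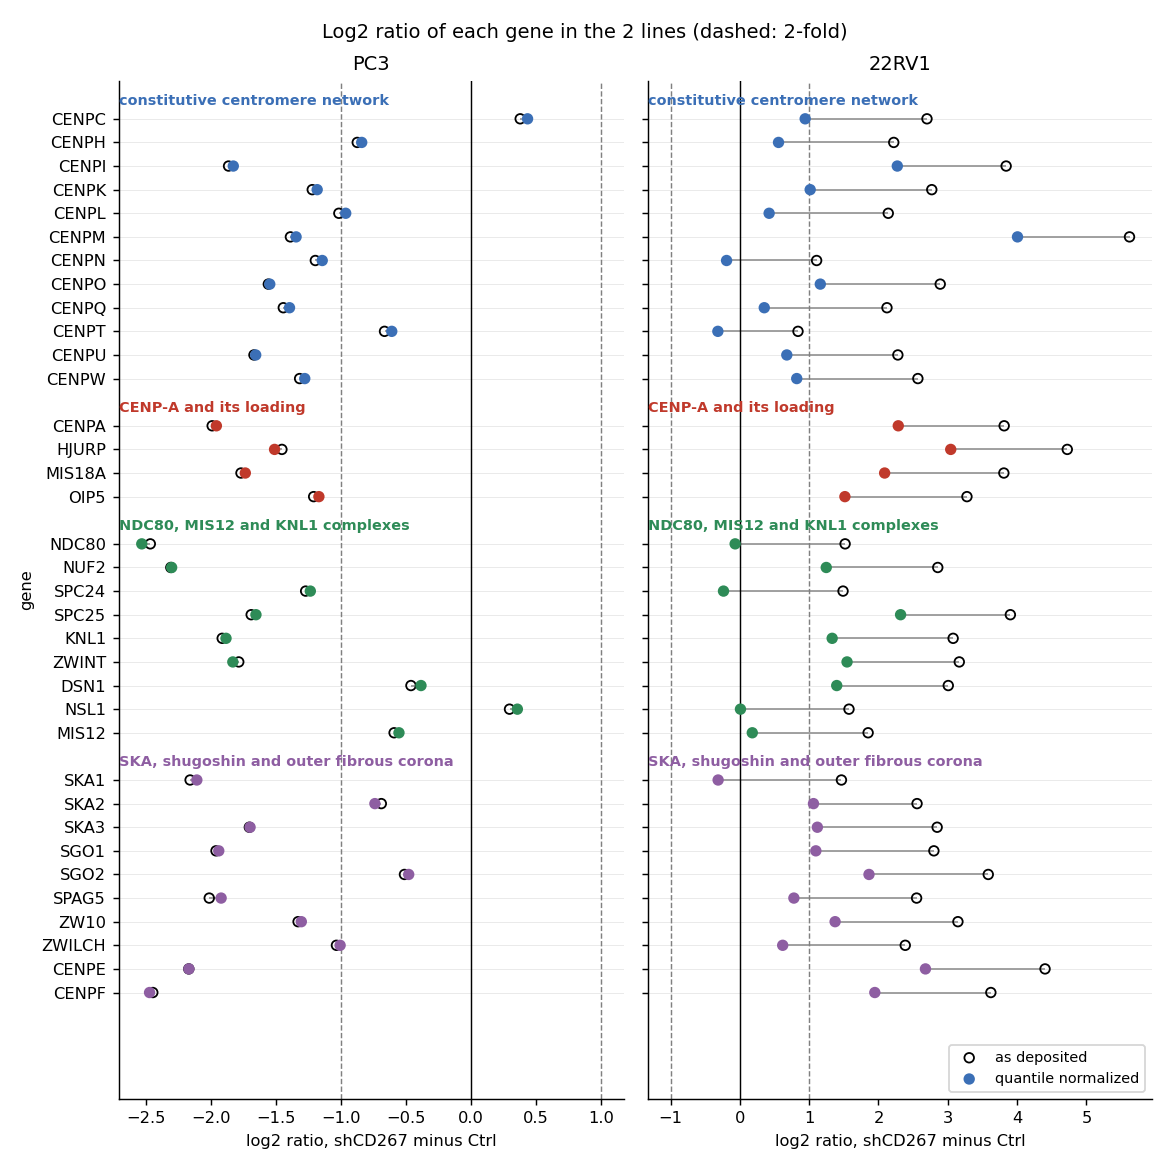
Log2 ratio of each measured gene, shCD267 minus Ctrl, in PC3 (left) and 22RV1 (right), as deposited (open points) and after quantile normalization (filled points), with dashed lines at 2-fold. In PC3, 27 open points lie left of -1 and the scales hardly differ, whereas in 22RV1 quantile normalization moves every point to the left and leaves 20 beyond 1.

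Counted gene by gene, 27 of the 35 were at least 2-fold lower in PC3 and at least 2-fold higher in 22RV1 as deposited, beside 3.56% of all genes. This is the PC3 count again, since as deposited the 22RV1 condition removed none of the 27. Among all genes, 629 of the 829 lower in PC3 met it as well. After quantile normalization 17 met both conditions, beside 1.63% of all genes. The ratios of the lines share no array. Across the 35 genes the PC3 and 22RV1 ratios had a Pearson correlation of -0.26 and a Spearman correlation of -0.32 as deposited, against -0.13 and -0.11 over all genes, and these are descriptions across genes measured on the same 4 arrays. As deposited, 33 of the 35 ratios lay below 0 in PC3, beside 8872 of all 17687 genes. In 22RV1 all 35 lay above 0, but so did 15854 of all genes. After quantile normalization 5 of the 35 lay below 0 in 22RV1, beside 9302 of all genes. The sizes of the ratios in the lines had little relation.

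**Figure D2:**
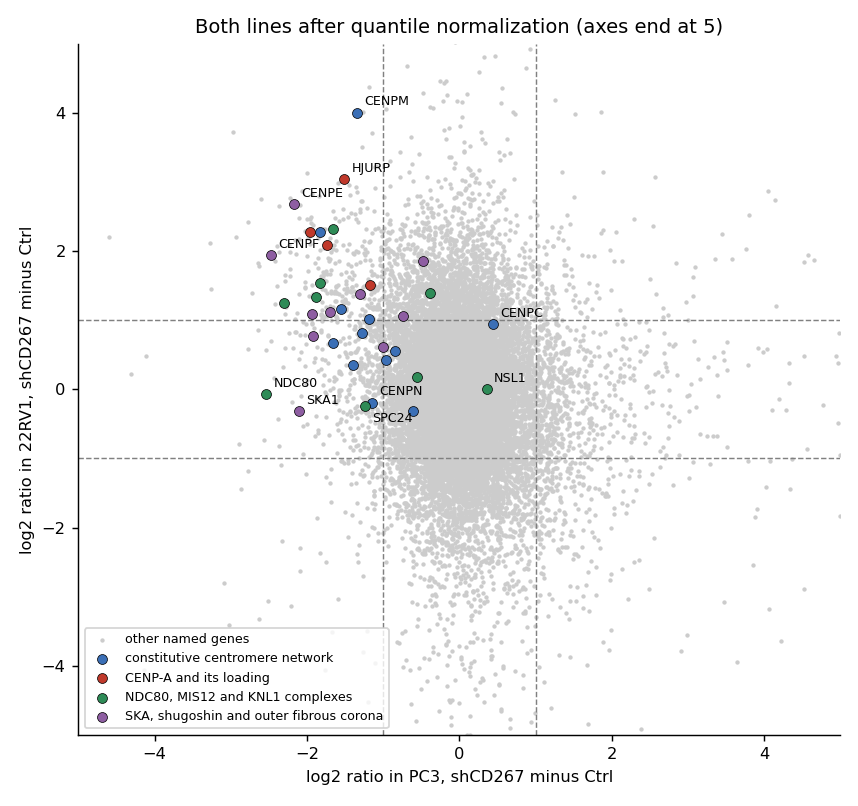
PC3 ratio (horizontal) against 22RV1 ratio (vertical), both log2 shCD267 minus Ctrl after quantile normalization, for the genes of the set (coloured by group) and all other named genes (grey), with axes ending at 5 and dashed lines at 2-fold. Of the 35 coloured points, 17 lie in the upper left field, while NDC80, SKA1, SPC24 and CENPN lie to the left near 0 on the vertical axis.

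CENP-A and its loading factors were the group in which all members passed 2-fold in both lines on both scales. Of all genes, 3.56% as deposited and 1.63% after quantile normalization were at least 2-fold lower in PC3 and higher in 22RV1. CENPA encodes the histone H3 variant itself, and it read 7.39 in PC3 shCD267, 9.38 in PC3 Ctrl, 8.56 in 22RV1 shCD267 and 4.75 in 22RV1 Ctrl. It was lower with the knockdown in PC3 and higher in 22RV1, with its lowest deposited value on the 22RV1 Ctrl array. The PC3 ratio was -1.99, or 3.98-fold lower, and the 22RV1 ratio was 3.81 as deposited and 2.29 after quantile normalization. HJURP is the chaperone that carries new CENP-A to the centromere. Its values were 12.20 and 13.66 in PC3 shCD267 and Ctrl, and 13.71 and 8.99 in 22RV1 shCD267 and Ctrl. PC3 Ctrl and 22RV1 shCD267 stood together at the top, and the ratios were -1.45 in PC3 and, in 22RV1, 4.72 as deposited and 3.04 after quantile normalization.

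MIS18A and OIP5 encode subunits of the MIS18 complex, which prepares centromeres to receive CENP-A after mitosis. MIS18A read 9.85 and 11.61 in PC3 shCD267 and Ctrl, then 11.55 and 7.74 in 22RV1 shCD267 and Ctrl. For OIP5 the same order of arrays gave 8.25, 9.46, 9.61 and 6.33. Both were higher in PC3 Ctrl than in PC3 shCD267 and, as deposited, lowest in 22RV1 Ctrl. Their PC3 ratios were -1.77 and -1.21. In 22RV1 the ratios were 3.81 and 3.28 as deposited, and 2.09 and 1.52 after quantile normalization. The group median was -1.61 in PC3 and 3.81 as deposited, or 2.19 after quantile normalization, in 22RV1.

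**Figure D3:**
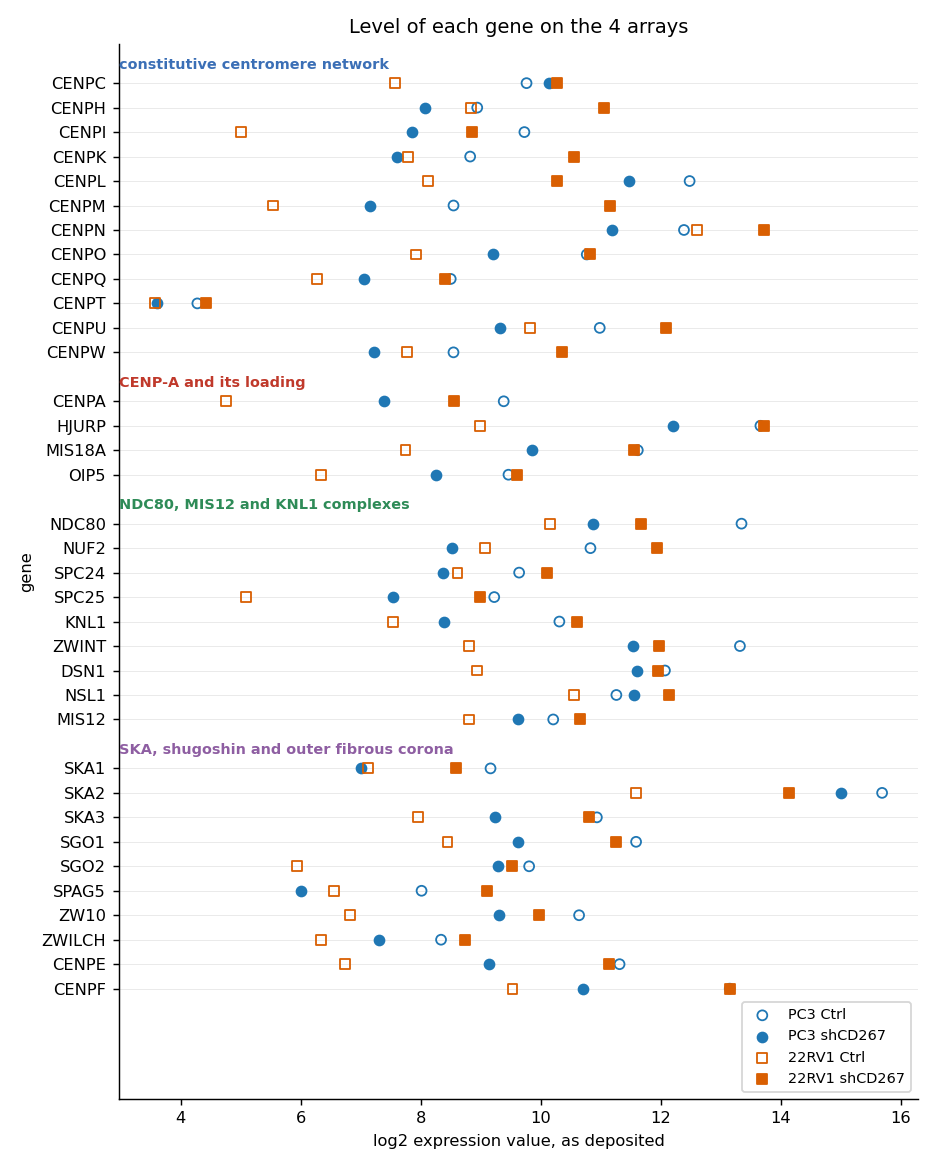
Log2 expression value as deposited (horizontal) of each measured gene on the 4 arrays, with circles for PC3, squares for 22RV1, open symbols for Ctrl and filled symbols for shCD267. For 30 of the 35 genes PC3 Ctrl and 22RV1 shCD267 are the pair of highest values, and the lowest value is 22RV1 Ctrl for 26 genes and PC3 shCD267 for 9 on this scale, against 14 and 20 after quantile normalization.

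Within the constitutive centromere network 9 of 12 genes were at least 2-fold lower in PC3, beside 4.69% of all genes, with a group median of -1.27. In 22RV1 the deposited values gave a median of 2.42 and the quantile normalized values 0.75. On the latter scale 4 of the 12 were at least 2-fold higher, beside 13.3% of all genes. CENP-C ties CENP-A nucleosomes to the MIS12 complex, and its gene CENPC read 10.14 in PC3 shCD267, 9.76 in PC3 Ctrl, 10.27 in 22RV1 shCD267 and 7.57 in 22RV1 Ctrl. The PC3 arrays thus differed by 0.38 with shCD267 the higher, and the 22RV1 ratio was 2.70 as deposited and 0.94 after quantile normalization.

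The CENP-H, CENP-I, CENP-K and CENP-M proteins form a complex that bridges CENP-C and the outer layers. CENPM, which codes for a subunit with the fold of a small GTPase, read 7.16 and 8.54 in PC3 shCD267 and Ctrl, and 11.15 and 5.53 in 22RV1 shCD267 and Ctrl. The contrast between the 22RV1 arrays was the widest in the set, with ratios of 5.62 as deposited and 4.005 after quantile normalization, and in PC3 the ratio was -1.39. Within its own array CENPM exceeded 52.1% of all genes in 22RV1 Ctrl and 84.2% in 22RV1 shCD267. CENPI values were 7.86 and 9.73 in PC3 shCD267 and Ctrl, and 8.85 and 5.005 in 22RV1 shCD267 and Ctrl. PC3 shCD267 was 3.64-fold below its control, and the 22RV1 ratio was 3.84 as deposited and 2.27 after quantile normalization. CENPK and CENPH were closer to the 2-fold line. CENPK had a PC3 ratio of -1.22, and in 22RV1 it had 2.77 as deposited and 1.01 after quantile normalization. For CENPH the PC3 ratio was -0.87, and the 22RV1 ratios were 2.22 and 0.56 on these scales.

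CENP-L and CENP-N form a dimer that reads CENP-A nucleosomes directly. CENPN read 11.19 in PC3 shCD267, 12.38 in PC3 Ctrl, 13.71 in 22RV1 shCD267 and 12.60 in 22RV1 Ctrl. Its lowest value was that of PC3 shCD267, 2.29-fold below PC3 Ctrl. Its 22RV1 ratio was 1.11 as deposited, below the all-gene median of 1.22, and -0.19 after quantile normalization, so its direction in 22RV1 depended on the scaling. CENPL lay just past 2-fold in PC3, at -1.02, and fell short of it after quantile normalization at -0.96. In 22RV1 it stood at 2.14 as deposited and 0.42 after quantile normalization.

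CENPO, CENPQ and CENPU encode subunits of a complex that helps kinetochores to recover from wrong attachments and, through CENP-U, binds the kinase PLK1. All 3 were at least 2-fold lower in PC3, at -1.56, -1.44 and -1.67, beside 4.69% of all genes. In 22RV1 they stood at 2.89, 2.12 and 2.28 as deposited and at 1.16, 0.35 and 0.68 after quantile normalization. CENPO alone of the 3 was thus at least 2-fold higher on the latter scale, beside 13.3% of all genes. CENP-T and CENP-W are histone-fold proteins that give the NDC80 complex a further anchor to centromeric DNA. CENPW read 7.23 and 8.54 in PC3 shCD267 and Ctrl, and 10.34 and 7.78 in 22RV1 shCD267 and Ctrl. Its PC3 ratio was -1.32, and the 22RV1 ratio was 2.57 as deposited and 0.82 after quantile normalization. CENPT, between 3.57 and 4.41, was below the dim level on all 4 arrays, so its ratios were measured at background. They were -0.66 in PC3, and 0.84 as deposited and -0.32 after quantile normalization in 22RV1.

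The NDC80 complex held the gene furthest below control in PC3. NDC80 and NUF2 encode the pair that grips the microtubule. NDC80 read 10.88 in PC3 shCD267 and 13.34 in PC3 Ctrl, against 11.66 in 22RV1 shCD267 and 10.14 in 22RV1 Ctrl. The PC3 difference was 5.53-fold, and it took the gene from above 95.2% of all genes to above 81.4%. In 22RV1 the ratio was 1.52 as deposited and -0.068 after quantile normalization, and the gene's place within its array was 87.8% in Ctrl and 87.7% in shCD267. NUF2, its partner, lay past 2-fold in both lines on both scales. Its values were 8.52 and 10.83 in PC3 shCD267 and Ctrl, and 11.93 and 9.07 in 22RV1 shCD267 and Ctrl. It was 4.96-fold lower in PC3 with the knockdown, and in 22RV1 its ratio was 2.85 as deposited and 1.25 after quantile normalization.

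SPC24 and SPC25 encode the pair at the other end of the complex, which docks on the inner kinetochore. SPC25 read 7.53 and 9.22 in PC3 shCD267 and Ctrl, and 8.99 and 5.09 in 22RV1 shCD267 and Ctrl. Values of SPC24 in the same order were 8.37, 9.64, 10.10 and 8.61. Both were lower with the knockdown in PC3, at -1.69 and -1.27, but they parted in 22RV1. There SPC25 had 3.90 as deposited and 2.32 after quantile normalization, and SPC24 had 1.49 and -0.24. The 4 genes of the complex thus ranged from -2.47 to -1.27 in PC3 and from -0.24 to 2.32 in 22RV1 after quantile normalization. On that scale 1 gene of each dimer was at least 2-fold higher in 22RV1, beside 13.3% of all genes.

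KNL1 is the scaffold on which the BUB checkpoint proteins assemble, and ZWINT is its partner. KNL1 read 8.39 and 10.31 in PC3 shCD267 and Ctrl, and 10.61 and 7.53 in 22RV1 shCD267 and Ctrl. For ZWINT the values were 11.53 and 13.32, then 11.97 and 8.80. Both were past 2-fold in each line on both scales, with PC3 ratios of -1.91 and -1.79 and 22RV1 ratios of 3.08 and 3.17 as deposited, or 1.33 and 1.55 after quantile normalization.

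The MIS12 complex, which joins the centromere to NDC80 and KNL1, lay nearer to control than its neighbours in PC3. None of its 3 measured genes was 2-fold lower, whereas all 6 genes of the NDC80 and KNL1 complexes were, beside 4.69% of all genes. DSN1 read 11.61 and 12.07 in PC3 shCD267 and Ctrl, a ratio of -0.46, and 11.95 and 8.94 in 22RV1 shCD267 and Ctrl, with ratios of 3.01 as deposited and 1.40 after quantile normalization. NSL1 read 11.56 and 11.26 in PC3, the other gene of the set with a ratio above 0 there, at 0.30. Its 22RV1 values were 12.13 and 10.55, with ratios of 1.57 as deposited and 0.0088 after quantile normalization. MIS12 itself had a ratio of -0.59 in PC3, and in 22RV1 1.85 as deposited and 0.18 after quantile normalization. DSN1 was thus the 1 gene of the 3 at least 2-fold higher in 22RV1 on the latter scale, beside 13.3% of all genes. This split of complexes was seen on single arrays and was not tested.

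The SKA complex helps NDC80 to track shrinking microtubule ends. SKA1 read 7.0005 in PC3 shCD267, 9.16 in PC3 Ctrl, 8.58 in 22RV1 shCD267 and 7.12 in 22RV1 Ctrl. It was 4.47-fold lower with the knockdown in PC3, while its 22RV1 ratio was 1.47 as deposited and -0.31 after quantile normalization. SKA3 had a ratio of -1.70 in PC3, and in 22RV1 2.85 as deposited and 1.12 after quantile normalization. SKA2 was bright on every array, at 15.00 and 15.68 in PC3 shCD267 and Ctrl and 14.14 and 11.58 in 22RV1 shCD267 and Ctrl. Its PC3 ratio was -0.69, short of 2-fold, and its 22RV1 ratio was 2.56 as deposited and 1.06 after quantile normalization.

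The shugoshins also differed between themselves in PC3. SGO1, which protects cohesin at centromeres until anaphase, read 9.62 and 11.59 in PC3 shCD267 and Ctrl, and 11.24 and 8.44 in 22RV1 shCD267 and Ctrl. Values for SGO2, its paralogue, were 9.29 and 9.80, then 9.52 and 5.93. SGO1 was 3.89-fold lower with the knockdown in PC3 and SGO2 1.42-fold lower. In 22RV1 the order turned, at 2.80 for SGO1 and 3.58 for SGO2 as deposited and at 1.10 and 1.86 after quantile normalization. SPAG5 encodes astrin, a protein of spindles and attached kinetochores. It read 5.999 and 8.01 in PC3 shCD267 and Ctrl, and 9.10 and 6.55 in 22RV1 shCD267 and Ctrl, with a ratio of -2.01 in PC3, and in 22RV1 of 2.55 as deposited and 0.78 after quantile normalization.

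ZW10 and ZWILCH belong to the RZZ complex, which brings dynein and checkpoint proteins to unattached kinetochores. ZW10 read 9.31 and 10.64 in PC3 shCD267 and Ctrl, and 9.96 and 6.82 in 22RV1 shCD267 and Ctrl. ZWILCH was close to the 2-fold line in PC3, with a ratio of -1.03, against -1.33 for ZW10. Their 22RV1 ratios were 3.15 for ZW10 and 2.39 for ZWILCH as deposited, and 1.37 and 0.62 after quantile normalization. CENPE and CENPF were among the genes furthest from control in both lines. CENPE, a kinesin that carries chromosomes to the spindle equator, read 9.14 and 11.31 in PC3 shCD267 and Ctrl, and 11.13 and 6.73 in 22RV1 shCD267 and Ctrl. CENPF, a large coiled-coil protein of the corona, read 10.70 and 13.15 in PC3 and 13.15 and 9.53 in 22RV1, in the same order. PC3 Ctrl and 22RV1 shCD267 were within 0.2 of each other for both genes. CENPE was 4.50-fold and CENPF 5.46-fold lower in PC3 shCD267, and the 22RV1 ratios were 4.40 and 3.62 as deposited and 2.68 and 1.95 after quantile normalization.

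The place of a gene among all genes on its own array does not depend on the array's scale. The median gene of the set exceeded 76.8% of all genes in PC3 Ctrl and 67.6% in PC3 shCD267, and 71.1% in 22RV1 Ctrl and 80.4% in 22RV1 shCD267. On this measure the set stood lower with the knockdown in PC3 and higher in 22RV1. Quantile normalized values also rest on ranks within each array, so these measures are not independent. As log2 values after quantile normalization the medians were 9.80 and 8.72 in PC3 Ctrl and shCD267, and 9.17 and 10.29 in 22RV1 Ctrl and shCD267. The order of the arrays for single genes depended on the scale. PC3 Ctrl and 22RV1 shCD267 held the pair of highest values for 30 of 35 genes as deposited and for 19 after quantile normalization. The lowest value was that of 22RV1 Ctrl for 26 genes as deposited but for 14 after quantile normalization, when PC3 shCD267 was lowest for 20 and PC3 Ctrl for 1.

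**Figure D4:**
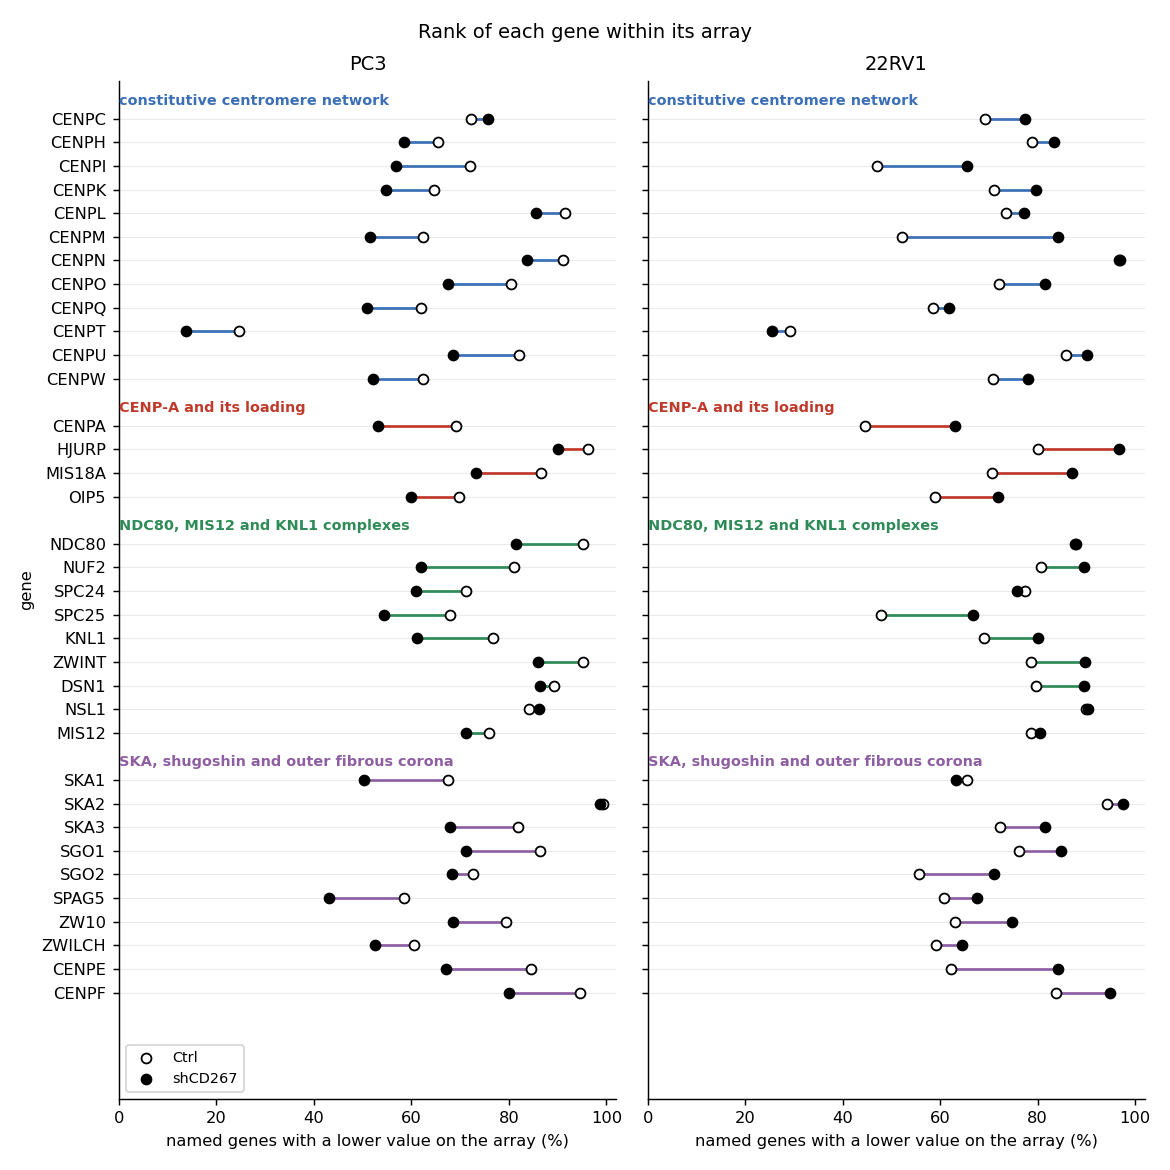
Share of named genes with a lower value on the same array (horizontal, in %), for each measured gene in Ctrl (open) and shCD267 (filled), in PC3 (left) and 22RV1 (right). Most lines run to the left with the knockdown in PC3 and to the right in 22RV1, while NDC80 and CENPN hardly move in 22RV1.

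Promoters were read because so many genes of the set lay on the same side of control. Human RefSeq windows from 250 bases before to 50 after the start were at hand for 30 of the 35 genes, CENPH, CENPL, CENPM, MIS18A and KNL1 being without one, and where a gene had several starts the first listed was used. The letters searched, on both strands, were the CHR (TTTGAA or TTCGAA), named as the cell cycle genes homology region and known as a site of MuvB complexes, the CCAAT box (CCAAT), a site of NF-Y, and E2F sites (TTTCCCGC, TTTCGCGC, TTTGCCGC or TTTGGCGC). Hits of different motifs did not overlap in these windows. The windows of the 3 genes furthest below control in PC3, and of 3 genes that were not 2-fold lower there, are shown on the gene's own strand, with the found motifs, or their complements on the other strand, in capitals (build GRCh38.p14).
NDC80, chr18:2571307-2571606, plus strand: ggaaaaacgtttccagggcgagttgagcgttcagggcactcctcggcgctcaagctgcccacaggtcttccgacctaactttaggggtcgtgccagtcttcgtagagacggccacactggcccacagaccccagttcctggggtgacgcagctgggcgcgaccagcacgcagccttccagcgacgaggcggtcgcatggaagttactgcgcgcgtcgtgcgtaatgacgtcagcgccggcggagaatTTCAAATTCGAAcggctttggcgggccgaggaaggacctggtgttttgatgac
CENPF, chr1:214602945-214603244, plus strand: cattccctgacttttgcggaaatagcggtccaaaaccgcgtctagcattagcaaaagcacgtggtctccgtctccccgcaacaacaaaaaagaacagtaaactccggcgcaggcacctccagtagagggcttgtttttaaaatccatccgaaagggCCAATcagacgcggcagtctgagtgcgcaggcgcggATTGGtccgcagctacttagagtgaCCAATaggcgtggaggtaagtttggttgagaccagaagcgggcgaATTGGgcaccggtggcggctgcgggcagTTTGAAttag
NUF2, chr1:163321704-163322003, plus strand: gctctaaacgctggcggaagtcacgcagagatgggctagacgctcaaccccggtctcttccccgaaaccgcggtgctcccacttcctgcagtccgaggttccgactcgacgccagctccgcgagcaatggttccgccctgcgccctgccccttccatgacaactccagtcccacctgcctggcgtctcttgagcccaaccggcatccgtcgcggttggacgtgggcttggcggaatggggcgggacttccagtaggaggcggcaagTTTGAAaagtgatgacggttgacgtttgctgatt
CENPC, chr4:67545454-67545753, minus strand: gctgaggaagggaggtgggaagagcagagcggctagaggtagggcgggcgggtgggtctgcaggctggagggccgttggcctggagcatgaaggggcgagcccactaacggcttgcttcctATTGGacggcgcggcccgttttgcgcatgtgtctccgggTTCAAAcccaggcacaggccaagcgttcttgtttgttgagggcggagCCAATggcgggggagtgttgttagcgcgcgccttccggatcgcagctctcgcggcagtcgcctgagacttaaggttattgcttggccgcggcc
NSL1, chr1:212791728-212792027, minus strand: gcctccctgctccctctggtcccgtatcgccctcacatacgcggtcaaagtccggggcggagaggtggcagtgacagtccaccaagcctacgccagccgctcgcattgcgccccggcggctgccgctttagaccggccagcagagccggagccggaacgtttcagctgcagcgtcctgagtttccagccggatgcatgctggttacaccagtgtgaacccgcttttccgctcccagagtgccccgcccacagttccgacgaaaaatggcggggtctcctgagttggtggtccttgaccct
DSN1, chr20:36773714-36774013, minus strand: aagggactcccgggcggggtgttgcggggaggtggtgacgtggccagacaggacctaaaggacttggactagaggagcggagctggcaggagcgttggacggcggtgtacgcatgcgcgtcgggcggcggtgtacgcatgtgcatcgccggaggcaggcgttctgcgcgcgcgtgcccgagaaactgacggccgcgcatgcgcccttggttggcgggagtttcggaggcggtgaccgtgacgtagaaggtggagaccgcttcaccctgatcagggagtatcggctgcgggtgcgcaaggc

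Positions count from 1 at the start, with negative numbers before it, and give the first base of the hit as printed. NDC80 had adjoining CHR letters across the start, at -3 and 4, and no other motif. NUF2 had a CHR at 17, and CENPF a CHR at 41 with CCAAT letters at -94, -58, -33 and 13. NSL1 and DSN1 held none of the motifs, and CENPC had its CHR at -90, with CCAAT letters at -129 and -43.

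The CHR letters stood in 16 of the 23 windows of genes at least 2-fold lower in PC3 and in 1 of the 7 other windows, beside 16.4% of all RefSeq windows of the same length. Within 50 bases of the start, a distance chosen after the positions had been seen, they stood in 14 of 23 and 0 of 7, beside 5.01% of all windows. CCAAT letters were in 15 of 23 and 4 of 7, beside 34.6%, and E2F letters in 3 of 23 and 1 of 7, beside 3.31%. The median PC3 ratio was -1.87 over the 14 genes with CHR letters near the start, -1.33 over the 3 with them elsewhere and -1.03 over the 13 with none. CENPE and CENPI were lower in PC3 with none of the searched letters in their windows. In 22RV1, 11 of 17 windows of genes at least 2-fold higher after quantile normalization held the CHR letters, and 6 of the 13 others. These matches describe letters in a window and not binding.

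**Figure D5:**
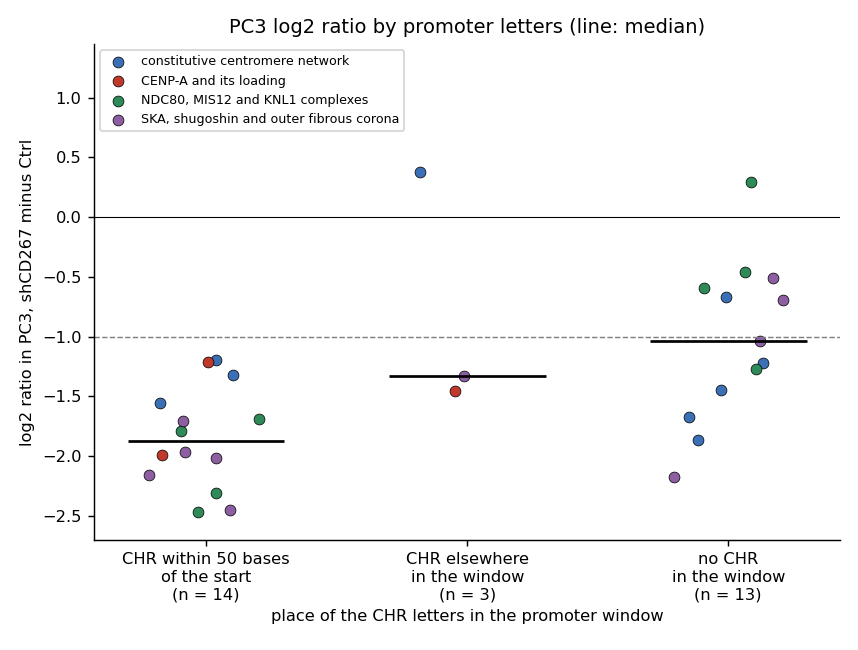
PC3 log2 ratio (vertical) of the 30 genes with a promoter window, by where the CHR letters lie, with 1 point per gene coloured by group and a line at each median. All 14 genes with CHR letters within 50 bases of the start lie below the dashed 2-fold line. That distance was chosen after the positions had been seen. The 3 genes with CHR letters elsewhere range from -1.45 to 0.38, and the 13 genes with none from -2.17 to 0.30.

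Further kinetochore genes, outside the 37, were read in the same way. Of 12 measured genes in this list, 6 were at least 2-fold lower in PC3 and none higher, with a median of -0.98. The shares of all genes were 4.69% lower and 5.76% higher. In 22RV1, 11 were at least 2-fold higher as deposited, beside 58.3% of all genes. After quantile normalization 7 were higher and 1 lower, BOD1, beside 13.3% and 15.5% of all genes. The furthest in PC3 were KIF2C, a kinesin that depolymerises microtubules, at -2.20, ITGB3BP, the CENP-R subunit, at -1.69, and KNSTRN, a partner of astrin, at -1.44. Among the 12 spindle checkpoint and chromosomal passenger genes, 9 were at least 2-fold lower in PC3, beside 4.69% of all genes, with a median of -1.77. In 22RV1, 12 as deposited and 9 after quantile normalization were at least 2-fold higher, beside 58.3% and 13.3% of all genes. BIRC5, the passenger subunit survivin, had the lowest PC3 ratio of these at -2.65, and AURKB, the passenger kinase, the highest 22RV1 ratio, 4.17 as deposited and 2.47 after quantile normalization. These lists were written with earlier results of these arrays known.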

How the data were processed

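The table deposited by the authors held log2 expression values of 24351 probe sets on each of 4 arrays. The study's methods name Clariom D arrays and the Expression Console and Transcriptome Analysis Console programs of Affymetrix. RMA and Partek are named in the submitters' processing notes, and versions are not given in the sources used here. In the deposited values the 22RV1 Ctrl array is not on the scale of the others, which moves every 22RV1 ratio. Its highest value was 19.77, against 18.37 in PC3 shCD267, 18.44 in PC3 Ctrl and 18.42 in 22RV1 shCD267.

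Gene symbols came from the platform annotation, in which 17709 probe sets have 1 symbol and 6642 none. For 20 genes with several probe sets the one with the highest mean level was kept. A gene counted as changed at 2-fold. Alternatives were centring on array medians, quantile normalization, loess (span 0.4), removal of dim genes, the mean of probe sets and thresholds of 1.5-fold and 3-fold. The scaling code was tested on simulated data. Scripts ran in Python 3.11.15 with pandas 2.3.3, numpy 2.4.6 and statsmodels 0.14.6. All 35 measured genes of the set could be named in the text, and from each of the further lists those with the largest ratios. BOD1 was named after its value was seen. The genes and lists were chosen with earlier results of these data known.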

Additional observations from a re-analysis of the deposited data

Results flagged for a closer look

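The 17 genes that were at least 2-fold lower in PC3 and at least 2-fold higher in 22RV1 after quantile normalization moved in opposite directions in the lines on their single arrays, and this difference between lines was not tested. The 22RV1 ratio minus the PC3 ratio, in log2 units on that scale, was 4.10 for CENPI, 2.20 for CENPK, 5.35 for CENPM, 2.71 for CENPO, 4.24 for CENPA, 4.55 for HJURP, 3.82 for MIS18A, 2.68 for OIP5, 3.55 for NUF2, 3.97 for SPC25, 3.22 for KNL1, 3.38 for ZWINT, 2.82 for SKA3, 3.04 for SGO1, 2.68 for ZW10, 4.85 for CENPE and 4.42 for CENPF. The widest of these gaps was that of CENPM, followed by those of CENPE and HJURP. The study itself reported cell cycle genes with opposite responses in the lines. Of these 17 genes it listed CENPA, CENPE, CENPF, CENPI, MIS18A and SPC25, as higher in 22RV1 and lower in PC3.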

How the results depend on the processing

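With the arrays centred on a common median, quantile normalized or loess normalized, the count of genes at least 2-fold higher in 22RV1 moved from 34 to 20 on each scale, and the median 22RV1 ratio from 2.80 to 1.16, 1.10 and 1.14 respectively. Over all 17687 genes the count at least 2-fold higher in 22RV1 moved from 10320 to 1912, 2345 and 2245 respectively. The count of the set lower in PC3 and higher in 22RV1 moved from 27 to 17 on each of these scales. Over all genes that count moved from 629 to 350, 289 and 278. At 3-fold, as deposited, 15 genes of the set were lower in PC3 and 13 lower in PC3 and higher in 22RV1. No share over all genes was counted at 3-fold or at 1.5-fold, so the counts at these thresholds have no background beside them. Some 22RV1 ratios turned below 0: CENPN at -0.53 centred and -0.19 quantile normalized, NDC80 at -0.12, -0.068 and -0.033 under centring, quantile and loess, SPC24 at -0.15, -0.24 and -0.22, SKA1 at -0.17, -0.31 and -0.31, CENPT, never past 2-fold, at -0.80, -0.32 and -0.27, and NSL1 at -0.062 centred. The cause of the other scale of the 22RV1 Ctrl array was not tested. In PC3 the count of lower genes was 27 centred, 26 under quantile and loess and 31 at 1.5-fold. Over all genes it was 1012 centred, 751 under quantile and 717 under loess. Removing dim genes and averaging probe sets could not move the counts, since only CENPT, called in neither line, is dim on the 4 arrays and each gene of the set has 1 probe set. With 1 array per group no replicate could be left out, and the spread between cultures is unknown. No paired analysis was possible because each group has 1 array. CENPT, below the dim level on every array, has no reliable ratio.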
